A study of Mus musculus with 2 samples.

Results

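The genes of laminin chains, their basement membrane partners, dystroglycan and integrin subunits were examined in the embryonic mouse hindbrain. They were 33 genes, named by symbol as members of these families, out of 43346 genes in the deposited tables: 10 laminin chains, 4 laminin-binding basement membrane genes, dystroglycan and 18 integrin subunits. All 33 were found by their Ensembl identifier.

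Total RNA had been sequenced from hindbrain of strain B6NCrl embryos at embryonic day 15.5, in 1 group of 2 libraries. Replicate 1 pooled 78 embryos and replicate 2 pooled 62, both of mixed sex and described as healthy, with no treatment or mutation named. Each library was made from 10 ng of size-selected long RNA, to which spike-in RNAs had been added. The group has no counterpart of another tissue, age or genotype, so the questions were which of these genes the tissue expressed, at which level and in which transcript forms, and how closely the pools matched.

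Laminins are trimers of an alpha, a beta and a gamma chain that polymerize into the sheet underlying the pial surface and ensheathing blood vessels of the brain. Nidogens and the heparan sulfate proteoglycans perlecan and agrin tie that sheet to collagen IV and to cells. Cells hold it through integrins, which are pairs of an alpha and a beta subunit, and through dystroglycan, whose sugar chain binds laminin; radial glial endfeet attach to the pial basement membrane in this way.

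The sequences below are those at which annotated forms of agrin and of the laminin-binding integrin subunits part, since several of the levels that follow are split between these forms. All are on GRCm38 (mm10) and read 5′ to 3′ along the transcript, with exons from GENCODE M21. Agrn lies on the minus strand of chromosome 4. Its 12-base exon of the y site is chr4:156169546-156169557, and the z site has a 24-base exon at chr4:156168546-156168569 and a 33-base exon at chr4:156167777-156167809. Capitals mark the optional exons, and lower case the 15 adjoining exon bases on each side after splicing. All 3 exons are coding and keep the reading frame, adding 4 codons at y and 19 at z.
Agrn-203, y exon: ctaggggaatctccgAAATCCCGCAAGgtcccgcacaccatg
Agrn-203, z exons: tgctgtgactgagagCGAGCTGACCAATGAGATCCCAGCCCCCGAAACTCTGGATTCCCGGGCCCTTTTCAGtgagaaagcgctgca
Agrn-206, z junction without them: tgctgtgactgagagtgagaaagcgctgca

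Itga6 and Itga3 each have an A form, with an extra exon that ends the reading frame, and a B form that skips it and ends in the next exon. The cytoplasmic ends therefore differ. The coding ends are shown from the first base after the last shared exon to the stop codon, with the opening 15 bases in capitals. Itga6 is on the plus strand, with the A end at chr2:71853534-71853638 and the B end at chr2:71855854-71856012. Itga3 is on the minus strand, with the A end at chr11:95046483-95046590 and the B end at chr11:95045611-95045763. These spans leave out the stop codon.
Itga6-201, A end: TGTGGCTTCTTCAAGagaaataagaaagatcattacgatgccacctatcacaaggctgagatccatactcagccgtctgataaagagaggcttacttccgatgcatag
Itga6-202, B end: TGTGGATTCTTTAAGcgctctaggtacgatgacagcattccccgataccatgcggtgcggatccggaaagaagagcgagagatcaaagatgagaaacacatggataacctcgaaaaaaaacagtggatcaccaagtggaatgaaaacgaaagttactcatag
Itga3-201, A end: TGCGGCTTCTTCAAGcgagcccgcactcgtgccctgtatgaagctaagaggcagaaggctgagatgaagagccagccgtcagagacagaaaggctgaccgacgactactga
Itga3-203, B end: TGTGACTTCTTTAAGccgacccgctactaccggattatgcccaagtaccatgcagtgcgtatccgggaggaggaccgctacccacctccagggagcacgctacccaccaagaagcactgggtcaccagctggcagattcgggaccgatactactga
The A ends have 35 codons in Itga6 and 36 in Itga3, and the B ends 53 and 51. The opening 15 bases were the same at 13 positions between the A and B ends of Itga6 and at 12 between those of Itga3. Between the genes, the A openings shared 14 bases and the B openings 13.

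The libraries held 40020322 and 43263959 estimated counts in genes. Levels are given as deposited, in TPM, an abundance corrected for transcript length and relative to the whole library, with the mean ± SD over both libraries (n = 2). In bulk tissue, fewer cells of a type and less RNA per cell cannot be told apart. Hindbrain Hox and Gbx2 markers were present, with 5 of 6 genes of that marker list at 1 TPM or more in both libraries. The other gene of that list, En2, had 1.07 TPM in replicate 1 and 0.480 in replicate 2, from 95 and 45 counts. Of 4 forebrain markers 1 passed: the list summed to 51.8 TPM in replicate 1 and 13.1 in replicate 2, nearly all of it Lhx2.

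With detection set at 1 TPM or more in both libraries, 28 of the 33 genes were detected. Among 21461 nuclear protein-coding genes the share detected was 63.1%. The median level of the 33 genes was 4.85 ± 0.184 TPM, beside 5.72 TPM for the coding genes. Levels ran from 0.0550 TPM for Itgb6 to 93.1 TPM for Agrn. The highest 4 were Agrn, Itgb1, Dag1 and Nid1, at percentiles 91.8, 89.1, 87.6 and 83.4 of coding genes. Complete coding transcripts are protein-coding models whose coding sequence is not marked as cut off. Over these alone Agrn had 36.5 and 40.8 TPM and stood behind Itgb1 at 71.9 ± 1.52, Dag1 at 59.5 ± 6.43 and Nid1 at 47.4 ± 8.61.

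**Figure D1:**
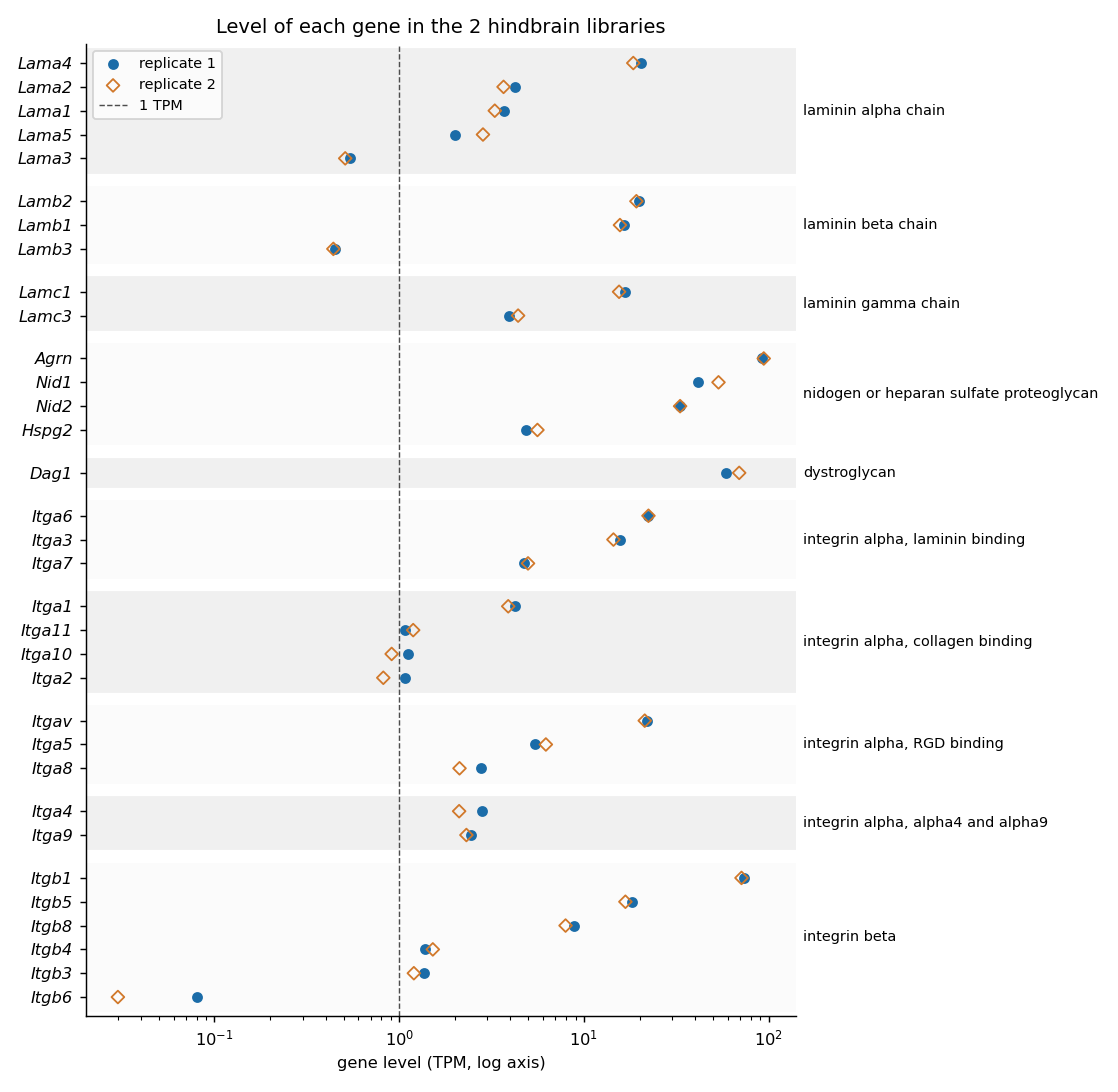
TPM of the 33 genes on a log axis, grouped by role, with filled circles for replicate 1, open diamonds for replicate 2 and a dashed line at 1 TPM. Both symbols lie at or right of the line for 28 genes, and Lama3, Lamb3 and Itgb6 lie left of it in both libraries.

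Lama4 led the laminin alpha chains. This chain is typical of vessel walls. It lies at chr10:38965515-39110188 and measured 20.3 TPM in replicate 1 and 18.5 in replicate 2. The other alpha chains were far lower in both libraries. Lama2, the chain whose loss causes a congenital muscular dystrophy, stood at 4.23 and 3.67 TPM. Lama1, the early embryonic and pial chain, stood at 3.68 and 3.29 TPM. Lama5 stood at 2.00 and 2.84 TPM, the one alpha chain with a higher TPM in replicate 2. Lama3, an epithelial chain, had 0.540 and 0.510 TPM from 146 and 147 counts, so it was measured but lay below the minimum. Lama4 made up 65.1% ± 1.28 of the summed alpha chain TPM, and Lama2 and Lama1 13.3% ± 0.719 and 11.7% ± 0.387. Over complete coding transcripts the order of Lama1 and Lama2 turned, to 19.2% ± 0.511 and 9.33% ± 0.833. Lama2 then had 1.87 and 1.53 TPM.

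Lamb1 and Lamb2 were present at similar levels. Lamb2, which lies 215778 bases from Dag1 on chromosome 9, had 20.0 and 19.2 TPM. Lamb1 had 16.5 and 15.7 TPM, below Lamb2 in both libraries. When the transcripts annotated as complete coding were counted alone, the order was not kept: Lamb2 had 15.1 and 13.7 TPM, and Lamb1 14.6 and 14.2. Lamb3, its epithelial beta partner, had 0.450 and 0.440 TPM, below its own deposited intervals of 0.529 to 2.07 and 0.616 to 2.00. Its deposited posterior mean, 1.245 TPM over both libraries, would pass the minimum in each. Lamc1, the gamma chain of most laminins, had 16.8 and 15.5 TPM, and Lamc3 3.94 and 4.40. Lamc1 thus held 79.4% ± 2.18 of the gamma chain TPM listed here, or 71.7% ± 1.59 over complete coding transcripts. The summed levels of the listed chains were 29.8 ± 1.37 TPM for alpha, 36.1 ± 1.11 for beta and 20.3 ± 0.573 for gamma.

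Of the laminin partners, Agrn, Nid1 and Nid2 were above each laminin chain in both libraries, and Hspg2 was not. Agrn, which codes for agrin, a heparan sulfate proteoglycan that binds laminin and dystroglycan, had 92.3 and 94.0 TPM. Nid1 (chr13:13437551-13512269) and Nid2 (chr14:19751265-19811787) code for the nidogens, which bridge laminin gamma 1 and collagen IV. Nid1 had 41.3 and 53.5 TPM and was higher in replicate 2. Nid2 had 33.1 TPM in both libraries. It overlaps Rtraf on the opposite strand, which had 132 and 120 TPM, and whether counting used strand is not given in the sources used here. Reads of Nid2 and Rtraf in the overlap may therefore not have been told apart. Hspg2, which codes for perlecan, was the lowest of these 4 at 4.84 and 5.60 TPM.

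Dag1 (chr9:108204634-108263958) codes for both dystroglycan subunits, which are cut from a single precursor. It had 58.9 and 69.2 TPM and was higher in replicate 2. Its 4 complete coding transcripts share 1 coding sequence and differ outside it. The leading one, Dag1-204, had 26.0 and 25.9 TPM. Dag1-201 had 14.7 and 21.6 TPM, and its deposited intervals of 11.7 to 16.8 and 17.3 to 24.3 TPM did not overlap.

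The listed genes of dystroglycan glycosylation were all detected, at 18 of 18, beside 63.1% of nuclear protein-coding genes. Their median was 27.3 ± 0.711 TPM, and the list includes genes that supply mannose donors as well as enzymes that build the chain. The highest were Dpm2 and Dpm3, subunits of dolichol-phosphate mannose synthase, at 112 ± 0.460 and 67.7 ± 5.23 TPM, and B4gat1, which primes the chain, at 79.9 ± 0.636 TPM. Large2, a glycosyltransferase of the same pathway, had 1.18 and 1.19 TPM. Of 14 genes of the dystrophin complex, which links dystroglycan to the cytoskeleton, 12 were detected. Sgce, Dtnb and Sgcb were the highest of these, at 50.5 ± 0.255, 43.2 ± 5.85 and 32.8 ± 1.10 TPM. The sarcoglycan Sgca, which is typical of striated muscle, was among those not detected. It had 0 counts in replicate 1, allowing up to 0.114 TPM, and 3 counts in replicate 2.

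Other listed ligands of dystroglycan were all detected, at 7 of 7, beside 63.1% of nuclear protein-coding genes. Among them, Nrxn3 had 69.0 ± 8.58 TPM, and Nrxn2 had 35.7 and 37.4 TPM. Neurexins are presynaptic adhesion proteins.

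Itgb1 (chr8:128685654-128733200), the beta subunit shared by the laminin and collagen receptors, had 73.4 and 71.3 TPM. It held 71.6% ± 0.819 of the summed TPM of the beta subunits listed here. Itgb5, a partner of alpha v, had 18.3 and 16.8 TPM. Itgb8, which pairs with alpha v on radial glia and activates TGF-beta, had 8.81 and 7.95 TPM. The order of these 3 was the same in both libraries. Itgb4, the hemidesmosomal partner of alpha 6, had 1.38 and 1.52 TPM. Both values lay just below its deposited intervals of 1.386 to 2.433 and 1.527 to 2.681, and its posterior means were 1.87 and 2.05 TPM. Itgb3, known from platelets, had 1.37 and 1.20 TPM, and Itgb6, an epithelial subunit, 0.0800 and 0.0300 TPM from 10 counts and 1 count. The posterior means of Itgb6 were 0.810 and 0.680 TPM.

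Among the listed alpha subunits, Itga6, Itgav and Itga3 were the highest. The laminin receptor subunits Itga6, Itga3 and Itga7 had 22.3, 15.6 and 4.72 TPM in replicate 1. In replicate 2 they had 22.3, 14.4 and 4.98 TPM, in the same order. The collagen receptor subunits were lower, at 4.21 and 3.89 TPM for Itga1 and 1.08 and 1.19 for Itga11. Itga2 had 1.07 and 0.820 TPM and Itga10 1.11 and 0.910 TPM, so both passed 1 TPM in replicate 1 and missed it in replicate 2. Itga1 and Itga2 are neighbours on chromosome 13, 20996 bases apart.

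Of the subunits that recognize the RGD motif of fibronectin and vitronectin, Itgav had 22.0 and 21.3 TPM, Itga5 5.44 and 6.22, and Itga8 2.77 and 2.12. In TPM, Itga5, the fibronectin receptor subunit, was higher in replicate 2 and the other two were lower. The scaled counts of Itga8, in contrast, had a ratio of 1.03. Its TPM in replicate 2 lay just below its deposited interval of 2.15 to 3.21. Itga4 and Itga9, which share ligands such as VCAM1 and osteopontin, had 2.82 and 2.46 TPM in replicate 1, and 2.11 and 2.31 TPM in replicate 2. An antisense gene of Itga9, Gm2415, had 5.54 and 6.24 TPM, and Itga4 overlaps Cerkl on the other strand at 2.66 and 2.00 TPM. The levels of Itga4 and Itga9 carry the same uncertainty about strand as Nid2. So does that of Lamb3, which overlaps G0s2 on the opposite strand at 6.36 and 6.59 TPM. Itga1 overlaps Pelo on its own strand, at 4.92 and 5.22 TPM.

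The further lists of ligands, basement membrane genes and adaptors were mostly detected. The counts below stand beside 63.1% of nuclear protein-coding genes detected. Of 12 further integrin ligands 11 were detected, led by Col3a1 at 188 ± 23.4 TPM, Vtn (vitronectin) at 130.1 ± 3.92 and Col1a1 at 106 ± 13.7. Of 14 other basement membrane genes 11 were detected, led by Sparc at 534 ± 3.81 TPM, Col4a1 at 61.8 ± 0.233 and Egfl7 at 58.9 ± 2.20. The kidney-type chains Col4a3 and Col4a4 were below 1 TPM in both libraries and Ntn4 in replicate 2. Of 18 adaptors and kinases at the integrin tail 17 were detected. Ilk (integrin-linked kinase) had 170 ± 0.658 TPM, Crk 87.2 ± 0.594 and Fyn 61.1 ± 4.13. The epithelial kindlin Fermt1 was the one not detected, at 0.110 and 0.0300 TPM.

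The deposited TPM of a gene adds all of its transcripts, short fragments and transcripts with retained introns included. In 6 of the 28 detected genes, under 50% of the TPM came from complete coding transcripts. The same held for 12.3% of detected coding genes. The median share was 86.5% over the detected genes of the list and 95.8% over detected coding genes. The 6 genes were Itgav at 21.3%, Lama5 at 27.5%, Agrn at 41.5%, Lama2 at 43.0%, Itga6 at 44.2% and Itga4 at 48.3%. By share of counts instead of TPM, complete coding transcripts held 81.0% in Itgav, 90.6% in Lama5, 89.0% in Lama2 and 80.9% in Itga4, but 62.2% in Agrn and 61.0% in Itga6. A short model takes few reads to reach a given TPM. In Itga6 and Agrn, longer models held reads as well: Itga6-203 had 31.1% of the counts of its gene and Agrn-205 20.3%.

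**Figure D2:**
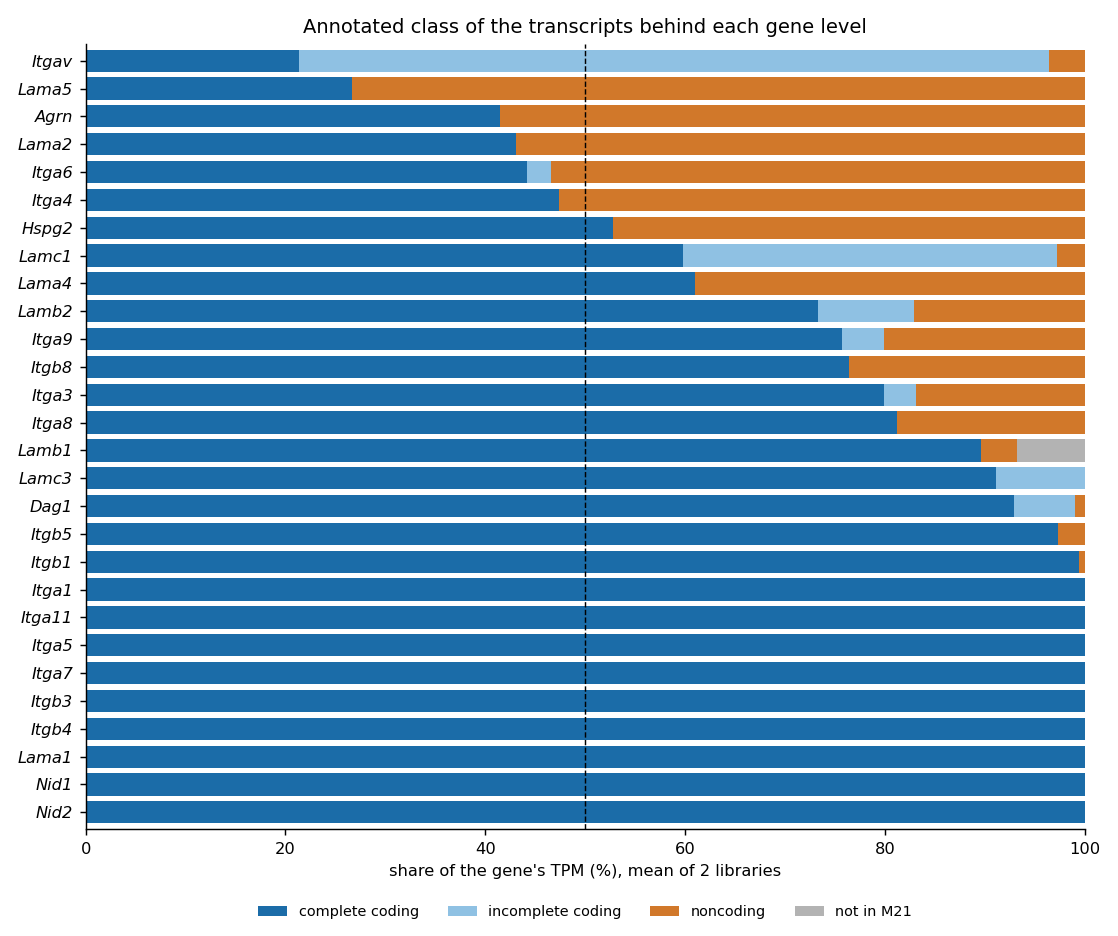
Share of each detected gene's TPM (mean of both libraries) on complete coding, incomplete coding and noncoding transcripts and on transcripts not found in GENCODE M21, with a dashed line at 50%. The 6 uppermost bars, Itgav to Itga4, have under 50% on complete coding transcripts.

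Itgav showed the widest gap. Its model Itgav-205, which is 463 nt long and incomplete, held 15.2 and 15.8 TPM. All of its bases (100%) lay in exons of the complete transcript Itgav-202, 82.3% of them in the last exon. The complete transcripts Itgav-201 and Itgav-202 together had 4.69 and 4.54 TPM. In Lama5 the complete transcript had 0.650 and 0.640 TPM, while the 478-nt model Lama5-204 had 0.620 and 1.13 TPM. The count of Lama5 was 207 and 223, a scaled ratio of 1.00, although its TPM was higher in replicate 2.

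In Agrn the retained-intron model Agrn-205, 2071 nt long, led with 44.9 and 44.1 TPM. Of its bases, 96.0% lay in exons of the complete transcript Agrn-203. The complete transcripts Agrn-203 and Agrn-206 had 19.6 and 16.4 TPM in replicate 1 and 21.3 and 19.0 in replicate 2. In Itga6 the processed transcript Itga6-203, of 2721 nt, led with 7.53 and 8.37 TPM. Of its bases, 37.9% lay in exons of Itga6-201.

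Counting complete coding transcripts alone changed the order within the integrin alpha subunits but not the leading laminin alpha chain. Lama4 held 65.1% ± 1.16 of the alpha chains on that basis. Among the listed integrin alpha subunits, all transcripts put Itga6 at 26.5% ± 0.701, Itgav at 25.7% ± 0.0853 and Itga3 at 17.9% ± 0.560. Complete coding transcripts put Itga3 first at 24.4% ± 1.19, then Itga6 at 20.1% ± 0.603 and Itga5 at 11.9% ± 0.826, with Itgav at 9.40% ± 0.451. Itgb1 held 73.3% ± 0.441 of the listed beta subunits on that basis.

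**Figure D3:**
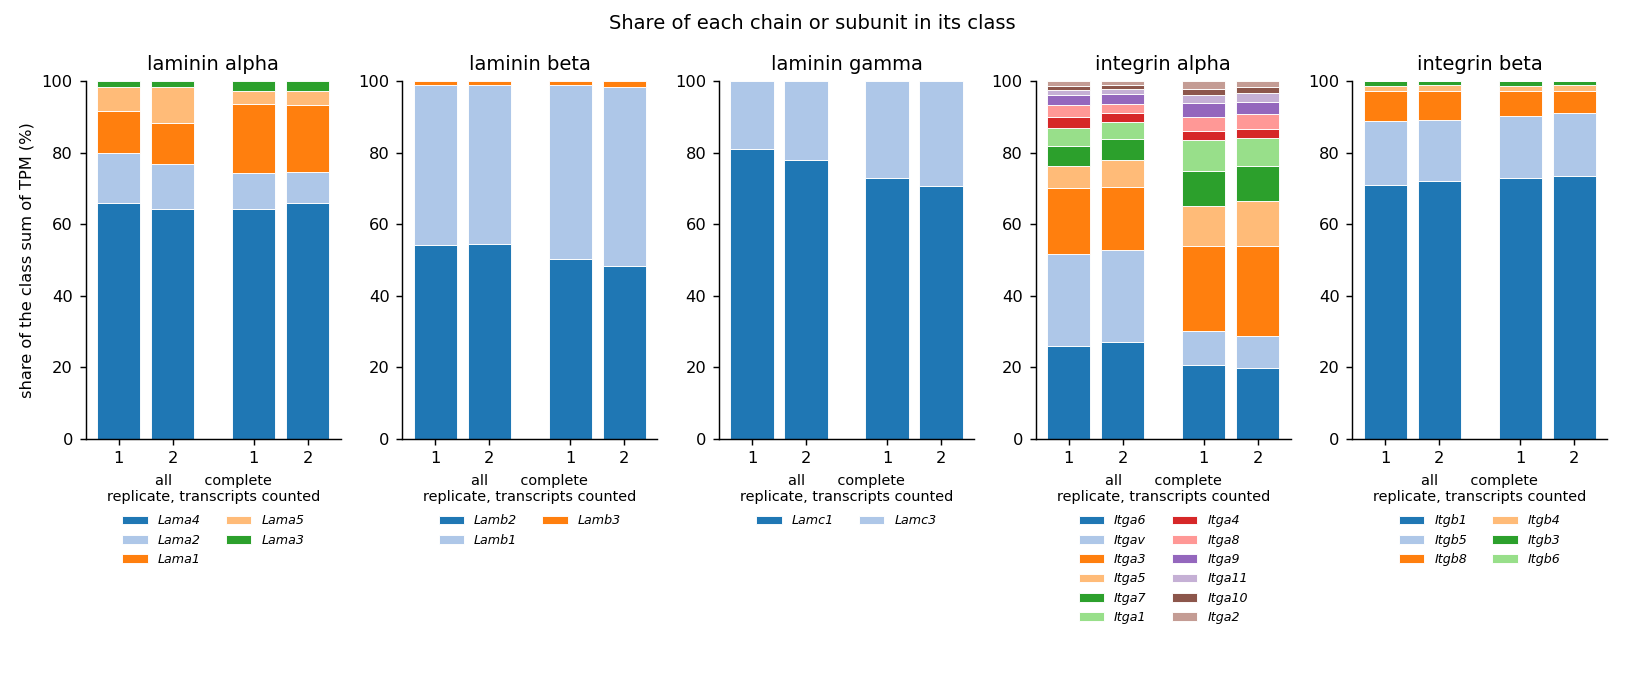
Stacked shares of the summed TPM of each class by library, for all transcripts (left pair of bars) and complete coding transcripts alone (right pair). Lama4, Lamc1 and Itgb1 keep the largest share on both bases, and Itgav shrinks from 25.7% to 9.40% of the sum of the listed integrin alpha subunits.

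The agrin y and z exons shown above occurred together in 1 complete transcript, Agrn-203. It held 53.6% of the complete coding TPM of Agrn in replicate 1 and 52.3% in replicate 2. Agrin with the z insert is the neuronal form that clusters acetylcholine receptors at the nerve-muscle synapse. The rest was almost entirely Agrn-206, which skips these exons. The annotation ties other features to the same choice: Agrn-206 starts at base 156197488 and Agrn-203 at base 156185901 of chromosome 4. The shares are thus those of whole annotated transcripts, and combinations of start and z exons outside the annotation were not measured. The deposited intervals of Agrn-203 and Agrn-206 overlapped in each library. In replicate 1 they were 16.6 to 20.3 TPM for Agrn-203 and 14.6 to 17.1 for Agrn-206. In replicate 2 they were 18.8 to 22.1 and 17.3 to 19.9 TPM.

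For Itga6, the A form with the 130-base exon had 6.56 TPM in replicate 1 and 5.02 in replicate 2. The B form had 3.33 and 4.80 TPM. The A share of complete coding TPM was 66.3% and 51.1%, but the deposited intervals of A and B overlapped in each library. They were 4.76 to 8.35 TPM for A and 1.249 to 4.95 for B in replicate 1, and 3.19 to 7.03 and 2.43 to 6.49 in replicate 2.

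For Itga3, the 142-base exon of the A form was in Itga3-201 and Itga3-202, which together had 6.07 and 5.17 TPM. The B form Itga3-203 had 5.32 and 7.47 TPM. The A share was 53.3% in replicate 1 and 40.9% in replicate 2, so the order of A and B was not the same in both. The intervals of Itga3-203, 3.77 to 6.83 and 5.52 to 8.64 TPM, overlapped.

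Itgav has a coding pair of exons, of 62 and 46 bases, that Itgav-201 carries and Itgav-202 skips. Transcripts with the pair held 34.8% and 52.6% of complete coding TPM, again on opposite sides of 50%. The deposited intervals of Itgav-201 and Itgav-202 overlapped in each library, however. In replicate 1 they were 0.938 to 2.975 TPM for Itgav-201 and 1.51 to 3.69 for Itgav-202. In replicate 2 they were 1.33 to 3.09 and 1.34 to 3.17 TPM.

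**Figure D4:**
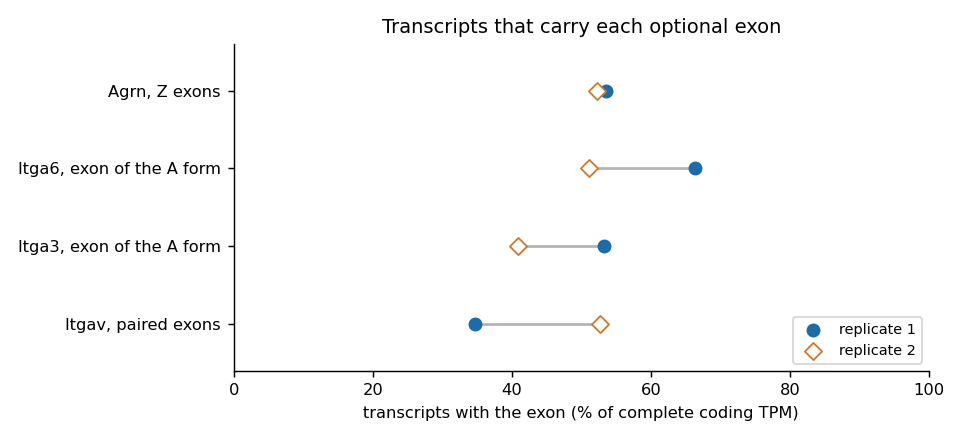
Share of complete coding TPM on transcripts that carry the named optional exons, with filled circles for replicate 1 and open diamonds for replicate 2. The Agrn points lie at 53.6% and 52.3%, while those of Itga3 and Itgav lie on both sides of 50%.

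The leading transcript, that of highest TPM, was compared in the 22 detected genes that have 2 or more transcripts in the tables. It was the same in both libraries in 19, beside 92.2% of detected coding genes with several transcripts. In 15 of these 19 the leader was a complete coding transcript. The leader differed in Lama5, Hspg2 and Itgb4. In Hspg2 the complete Hspg2-201 led in replicate 1 at 2.70 TPM, and the 820-nt processed transcript Hspg2-202 led in replicate 2 at 2.94 TPM.

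The pools were compared by the log2 ratio of scaled counts, replicate 2 over replicate 1, wherever the mean count reached 20. None of 32 genes compared differed by 1.5-fold or more, beside 6.43% of the 17048 genes compared and 4.88% of the 14755 coding genes among them. With 1 library per pool there is no spread within a pool, so no test was made, and the 95% exact (Clopper-Pearson) intervals cover counting error only. Itgb6 had too few counts to compare. The median log2 ratio was -0.05 over the list and 0.01 over coding genes.

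The intervals left out 0 for 11 of the 32 genes, 3 of them higher in replicate 2 and 8 lower. Among coding genes compared, 39.9% had such an interval, 21.1% on the higher and 18.8% on the lower side. Nid1 had the highest of the 3 ratios, at 6357 and 8693 counts, a ratio of 1.27 and a log2 ratio of 0.34 (0.29 to 0.39). Dag1 followed with 6998 and 8464 counts and a log2 ratio of 0.16 (0.12 to 0.21). Itga5 had 603 and 727 counts and a log2 ratio of 0.16 (0.001 to 0.32), with its lower bound next to 0. All these intervals use TMM scaling, and none was computed for the other scalings. Of the lower genes, Itga2 had the lowest ratio, from 114 and 92 counts, a log2 ratio of -0.42 (-0.83 to -0.01). Lama2 had 504 and 434 counts and a log2 ratio of -0.33 (-0.52 to -0.14). Itgb8 had 1614 and 1502 counts and a log2 ratio of -0.21 (-0.32 to -0.11). Of the 10 laminin chains 8 had a log2 ratio below 0, with a median of -0.13, beside 48.3% of coding genes below 0. With DESeq2 size factors it was 7, and with spike-in totals 9, the changed signs being those of Lama5 and Lamc3. On TPM it was 8, with changed signs for Lama5 and Lamb3. Of all 32 genes compared, 8 had opposite signs on TPM and on scaled counts. With spike-in totals 28 of the 32 were below 0. The 48.3% of coding genes is for TMM scaling, and no such share is given for the other settings.

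**Figure D5:**
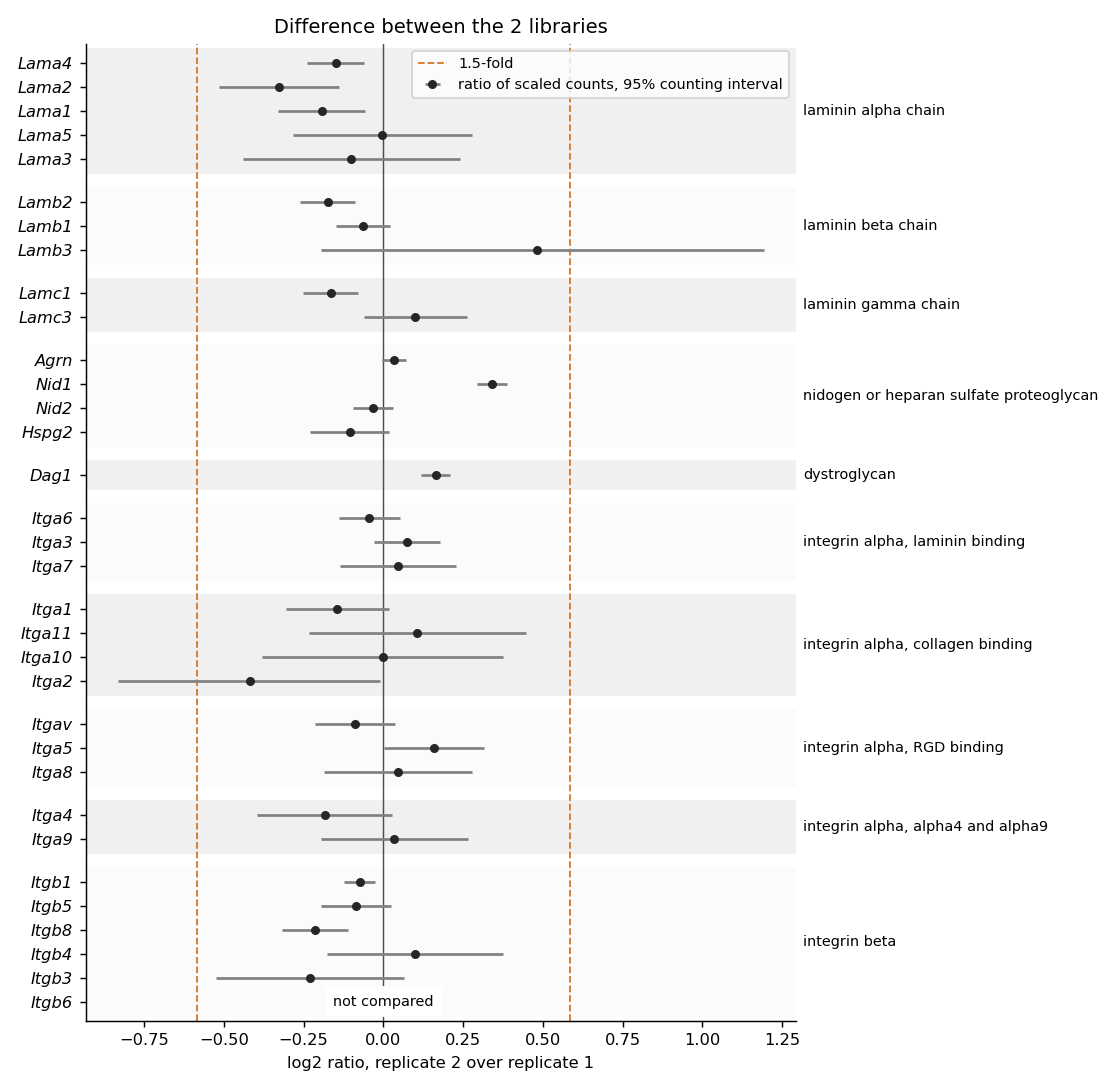
Log2 ratio of replicate 2 over replicate 1 for the 32 genes compared, grouped by role, with bars for the 95% counting interval and dashed lines at 1.5-fold. All points lie between the dashed lines, and the interval of Nid1 lies farthest from 0 on the higher side. The intervals of Itga2 and Lamb3 reach past the dashed lines.

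Marker lists of cell types that lie next to basement membranes had different ratios between the pools. The 6 endothelial markers, all detected, summed to 183 TPM in replicate 1 and 181 in replicate 2. The 6 pericyte and smooth muscle markers, 5 detected, summed to 58.0 and 58.3 TPM. The 6 meningeal fibroblast markers, all detected, summed to 540 and 442 TPM, a ratio of 0.819, and include the ligands Col1a1 and Col3a1 named above. The 5 choroid plexus markers, 4 detected, summed to 911 and 1248 TPM, a ratio of 1.37. None of these 4 lists had a gene at 0 in either library. The part of these cell types in the ratios of Nid1, Dag1 and the laminin chains was not tested.

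Of 80 further genes of the basement membrane, ligand, dystroglycan and adaptor lists that had counts enough, 3 passed 1.5-fold. Over all genes compared the share was 6.43%, and over coding genes 4.88%. Spp1, the integrin ligand osteopontin, had 859 counts in replicate 1 and 223 in replicate 2, or 25.5 and 6.19 TPM, a log2 ratio of -2.05. Smoc2, a calcium-binding matrix protein of basement membranes, had 336 and 235 counts, a log2 ratio of -0.63. The third was Large2, with 41.0 and 75.0 counts, named after its value was seen. Its TPM was nearly equal in the 2 libraries, at 1.18 and 1.19.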

How the data were processed

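Total RNA-seq of 2 libraries was used, each with a gene and a transcript table. The deposited estimated counts are reads assigned to a gene or transcript and carry no normalization, per the file headers. In the deposited TPM, spike-ins count toward the scaling total. The deposited FPKM served as an alternative for detection. Posterior means and interval bounds, deposited as a signal beside the TPM, gave further alternatives and marked uncertain transcripts. The build was mm10 and the annotation GENCODE M4, per the labels and file headers. Which aligner, quantifier and strand setting were used is not given in the sources used here.

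GENCODE M21, made on GRCm38 (the assembly mm10 is built from), supplied symbols, transcript types and exons. Of 155 member transcripts 154 were found there, 147 with the deposited length, including each one whose sequence is printed. Of 43346 gene identifiers 42462 matched. Spike-ins held 2.86% and 3.09% of counts and stayed out of library sizes and lists. A gene was detected if both libraries had 1 TPM or more. TMM in edgeR 4.0.16 (R 4.3.3) scaled the counts, and ratios used a prior count of 0.5 and a minimum mean count of 20. No p-value was computed. Ratios were tested on simulated data. Replicates are separate pools of embryos, so their SD holds biological and technical spread together. A count of 0 was given a limit of 3 counts.

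The members and lists were chosen with earlier results of these data known. All 33 members were named, and of each further list the 3 genes of highest mean TPM and any past 1.5-fold with a mean count of 100 or more. Some genes under this rule are not reported here. Other genes are named as examples of a role, after their values were seen. Detection and levels were repeated with minimums of 0.5 and 2 TPM, posterior means, FPKM, lower interval bounds, a rescaling over nuclear coding genes and each library alone. Ratios were repeated with DESeq2 1.42.0 size factors, count totals, spike-in totals, other count minimums and folds, and on TPM. Counting complete coding transcripts alone was added after seeing the data.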

Additional observations from a re-analysis of the deposited data

How the results depend on the processing

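The number of genes detected and the numbers detected in the 6 further lists stayed within 1.5 times their value under every alternative run for them. The number with the same leading transcript was 12 of 12 at a gene minimum of 5 TPM, where fewer genes qualify, and 15 to 21 under the other settings. The median level of the 33 genes was 6.17 TPM when TPM was rescaled over nuclear coding genes, and 4.05 TPM over complete coding transcripts alone. The number past 1.5-fold was 1 with no count minimum, the added gene being Itgb6 with 10 counts and 1 count, and 4 with the threshold lowered to a log2 ratio of 0.32, namely Lama2, Lamb3, Nid1 and Itga2. It was 0 under each other setting. The share of Lama4 was 63.7% with posterior mean TPM and 54.5% with estimated counts, and that of Itgb1 70.1% and 68.1%. With estimated counts, Lamb2 had 48.6% and Itga6 23.7% of their classes. With complete coding transcripts alone, Lamb2 had 49.3%, Lamc1 71.7%, Itga6 20.1% and Itgb1 73.3%. Counts are not corrected for length, which by construction raises long transcripts; for the other changes the cause was not tested. Spike-in totals lowered the median gene's log2 ratio, with a shift of -0.11, and 8 of 32 members then changed sign. No paired analysis was possible because there was 1 group. Depth limits Itgb6, Lamb3 and the split of low genes between transcripts.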
